A study of Mus musculus with 6 samples.

Results

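The VEGF and angiopoietin set holds 10 genes, chosen by symbol: the VEGF family ligands Vegfa, Vegfb, Vegfc and Pgf, the angiopoietins Angpt1 and Angpt2, the angiopoietin-like proteins Angptl2 and Angptl4, and the neuropilins Nrp1 and Nrp2. All 10 were found among the 24346 symbols listed per library, and all 10 passed the filter on low values (a mean of at least 1 FPKM). Of the 10, 8 are secreted ligands, whereas Nrp1 and Nrp2 are membrane co-receptors. RNA sequencing was done on 6 libraries of hepatic stellate cells, pericytes of the liver sinusoid that store vitamin A, from wild type C57BL/6 mice aged 35 weeks. The liver sources were normal diet livers and the tumor and non-tumor regions of high fat diet livers, called normal diet, tumour region and non-tumour region here. From each source, cells were isolated once at 37 degrees and once at 6 degrees, giving 6 groups of 1 library, called warm (37 degrees) and cold (6 degrees) libraries here. All groups were sorted as CD31-, CD45.2- and CD49a+ cells, where CD31 is a marker of endothelial cells and CD45.2 of leukocytes. The labels do not say how many livers a library held or whether libraries came from separate animals, and the error behind each p-value is only the scatter of these 6 libraries around an additive model of source and temperature, which may be technical.

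VEGF ligands bind the receptor tyrosine kinases Flt1, Kdr and Flt4, which are best known on blood and lymphatic endothelial cells, and neuropilins hold some of these ligands close to the receptors. Angpt1, made mainly by pericytes, activates the endothelial receptor Tek and steadies vessels, and Angpt2, released mainly by endothelial cells, can block Tek and loosen them. In the liver sinusoid, stellate cells wrap endothelial cells that carry these receptors, and both cell types sense low oxygen through hypoxia-inducible factors that act on Vegfa and Angptl4.

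Promoter sequence is shown for the 3 genes that passed a test in any comparison, so that what stands before their starts can be read beside their values. The sequences are RefSeq's on GRCm38.p6, which held an entry for 7 of the 10 genes and none for Angpt1, Angpt2 and Angptl4. Each is printed 5′ to 3′ in lower case, as the bases up to 250 before the gene's start that lie outside annotated exons, with every GC box (GGGCGG, or CCGCCC on the other strand) in capitals. Nrp2 is chr1:62703067-62703284 on the plus strand, Nrp1 is chr8:128358823-128359072 on the plus strand and Vegfc is chr8:54077282-54077531 on the plus strand.
Nrp2: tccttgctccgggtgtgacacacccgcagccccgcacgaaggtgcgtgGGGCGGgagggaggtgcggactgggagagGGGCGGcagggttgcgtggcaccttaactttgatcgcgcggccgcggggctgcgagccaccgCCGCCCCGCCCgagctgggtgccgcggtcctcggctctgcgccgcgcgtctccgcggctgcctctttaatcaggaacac
Nrp1: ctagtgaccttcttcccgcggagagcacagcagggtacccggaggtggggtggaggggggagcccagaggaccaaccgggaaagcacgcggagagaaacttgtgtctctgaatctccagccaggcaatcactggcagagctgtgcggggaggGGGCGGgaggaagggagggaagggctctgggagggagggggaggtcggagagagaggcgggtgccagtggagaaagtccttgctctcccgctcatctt
Vegfc: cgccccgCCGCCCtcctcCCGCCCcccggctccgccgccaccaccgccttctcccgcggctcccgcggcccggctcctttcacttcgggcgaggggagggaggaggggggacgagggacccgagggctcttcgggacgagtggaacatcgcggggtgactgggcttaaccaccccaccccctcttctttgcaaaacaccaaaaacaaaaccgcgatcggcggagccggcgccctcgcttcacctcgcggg
The full window of 250 bases held 5 GC boxes before Nrp2, of which 4 lie in the printed stretch, 1 before Nrp1 and 2 before Vegfc. The other members with an entry also held GC boxes, with 4 before Vegfb and 2 before Angptl2. Vegfa had 2 before its first and 1 before its second annotated start, and Pgf had 2 and 0. In all, 32.7% of 32851 RefSeq windows of this length held at least 1 GC box, with both strands searched and overlapping matches counted. The core of the hypoxia response element, ACGTG or CACGT, was in none of the windows before Nrp2, Nrp1 and Vegfc and in 16.6% of all windows. Among the members with an entry, it was found once, 211 bases before the second annotated start of Vegfa. A match is a description of the letters and not a bound site.

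The labelled cell type was checked first. The 12 markers of quiescent stellate cells summed to between 12000 and 21200 FPKM in the 6 libraries, and Lrat, the enzyme that esterifies retinol for storage, was at 335 to 538 FPKM. Of these 12, 3 rose at 37 against 6 degrees (limma, adjusted p under 0.05), where 0.344% of all genes tested rose. All 12 estimates were positive, with a median log2 difference of 0.37 against 0.01 over all genes tested. At an unadjusted p under 0.05, 11 were higher and 0 lower. Markers of endothelial cells and macrophages, which the sort was set against, were also present and differed with temperature. The sum of 14 endothelial markers was 468, 944 and 824 FPKM at 37 degrees in normal diet, non-tumour and tumour region, and 1820, 3820 and 2110 FPKM at 6 degrees. Eng made up much of the sums at 37 degrees (350 to 588 FPKM over the 6 libraries), and without it the other 13 markers summed to 89.2, 522 and 475 FPKM in the warm libraries and 1380, 3230 and 1680 FPKM in the cold ones. None of the 14 was at 0 in any library. With temperature, 13 of the 14 fell (median log2 difference -3 over the 14), where 3.96% of all genes tested fell. The sum of 12 macrophage markers was 48.2, 35.3 and 885 FPKM in the warm libraries and 527, 626 and 2200 FPKM in the cold ones in the same order of sources, with Marco the only one of these at 0 in a library. Of 11 macrophage markers tested, 7 fell with temperature and 5 rose in the tumour region against normal diet, where 5.23% of all genes tested rose. Hepatocyte markers (10 genes) summed to 23.8 to 206 FPKM, lymphocyte markers (6 genes) to 0.565 to 8.51, and markers of portal fibroblasts and smooth muscle (8 genes) to 355 to 1210. Cholangiocyte markers (6 genes) summed to 4.45 to 60.6 FPKM, most of it Spp1 (3.79 to 59.5 FPKM). Krt19, Krt7, Epcam and Cftr of this list were each at 0 in at least 1 library. Depth was estimated at 1.64e+07 to 2.28e+07 fragments per library, and a single fragment (1) on a 1 kb transcript came to 0.0439 to 0.0608 FPKM. In bulk RNA, fewer cells of a type and less RNA per cell cannot be told apart, and this holds for every value here.

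The 10 genes ran from near the bottom to near the top of the tested genes in level. In mean FPKM over the 6 libraries, a value per length, the order was Angptl2 at 410, Angptl4 at 127, Vegfc at 56.8, Nrp1 at 54.8, Vegfb at 24.9, Angpt1 at 8.66, Angpt2 at 6.89, Vegfa at 6.17, Nrp2 at 5.21 and Pgf at 2.09. Angptl2 stood above 98.4% of the 11614 genes tested and Pgf above 10.6%. The ranges of neighbours did not overlap for Angptl2 and Angptl4, for Nrp1 and Vegfb, and for Vegfb and Angpt1. Vegfc was above Nrp1 in 3 of 6 libraries, Angpt2 above Vegfa in 2, Vegfa above Nrp2 in 3 and Nrp2 above Pgf in 3. The order of these neighbours changed with temperature. Vegfc was above Nrp1, and Vegfa above Nrp2, in the warm libraries only, and Nrp2 was above Pgf in the cold ones only. Angpt2 was above Vegfa only in the cold libraries of the high fat diet regions. Angptl4 was above Vegfc in 6 libraries and Angpt1 above Angpt2 in 4, with ranges that overlapped. The VEGF family ligand with the highest FPKM was thus Vegfc, which acts mainly through Flt4, in all 6 libraries, at 5.68 to 12.8 times the FPKM of Vegfa.

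**Figure D1:**
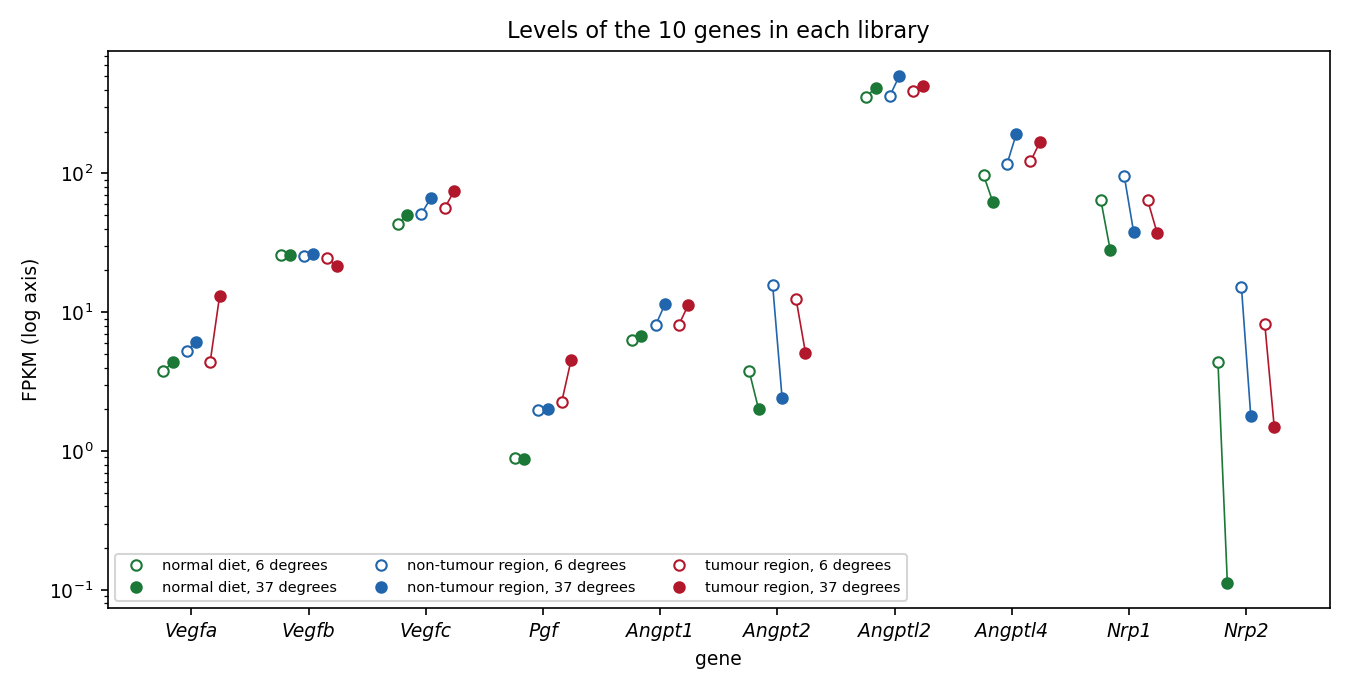
FPKM of the 10 genes (log axis) in each of the 6 libraries, open points at 6 degrees and filled points at 37 degrees, coloured by liver source, with a line joining the pair of libraries from a source. Vegfb stays between 21.5 and 26.3 FPKM, whereas Nrp2 spans 0.113 to 15.3 FPKM.

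Isolation temperature was compared over 3 pairs of libraries, which addresses how measured levels depend on the temperature of isolation. Of the 10 genes, 2 fell at 37 against 6 degrees and 0 rose (limma, adjusted p under 0.05 over all 11614 genes), where 4.31% of all genes tested passed, 3.96% lower and 0.344% higher. At an unadjusted p under 0.05, 3 were higher and 3 lower, where 967 of the 11614 genes tested were higher and 1373 lower. Both genes that fell were the neuropilins. The median difference was 0.22 on the log2 scale for the 10 genes and 0.01 for all genes tested.

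Nrp1, a co-receptor for Vegfa and for class 3 semaphorins, was at 28.2, 38 and 37.5 FPKM at 37 degrees in normal diet, non-tumour and tumour region, and at 64.6, 96.1 and 64.1 FPKM at 6 degrees. Every 6-degree library was above every 37-degree library, a pattern found in 9.36% of all genes tested (17.7% with either temperature above). Nrp1 fell by 1.08 ± 0.12 (SE, 3 pairs) on the log2(FPKM + 1) scale, or 2.11-fold (limma, adjusted p = 0.0195), and by 1.17, 1.31 and 0.76 in the 3 pairs. Nrp2, a co-receptor for Vegfc, was at 0.113, 1.79 and 1.5 FPKM in the warm libraries and 4.37, 15.3 and 8.17 FPKM in the cold ones. Here too the groups did not overlap. Nrp2 fell by 2.23 ± 0.17 on the log2(FPKM + 1) scale (limma, adjusted p = 0.0139), which is 4.7-fold, and the FPKM themselves were 38.8, 8.57 and 5.43 times higher at 6 degrees in the 3 pairs. The lowest Nrp2 value, in normal diet at 37 degrees, rested on an estimated 14.4 fragments. Both calls were lost with no filter on low values. They were also lost when either library of the normal diet or of the non-tumour region was left out, and held without either tumour region library. The ratio of Nrp1 to Nrp2 in FPKM was 251, 21.2 and 24.9 in the warm libraries and 14.8, 6.26 and 7.84 in the cold ones.

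The endothelial markers moved the same way in the same libraries. Without Eng, the endothelial sum was 15.5, 6.19 and 3.54 times higher at 6 degrees in normal diet, non-tumour and tumour region. The macrophage sum was 10.9, 17.7 and 2.49 times higher at 6 degrees in the same order of sources. The part of either cell type in the neuropilin result was not tested. In the normal diet library of 37 degrees, Nrp1 was at 28.2 and Nrp2 at 0.113 FPKM. There the 14 endothelial markers ran from 0.136 FPKM (Lyve1) to 378 FPKM (Eng), with Pecam1 at 0.9, Fcgr2b at 4.6, Egfl7 at 31.1 and Clec4g at 43.9. The markers not named here lay between 0.149 FPKM (Emcn) and 2.72 FPKM (Dnase1l3).

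**Figure D2:**
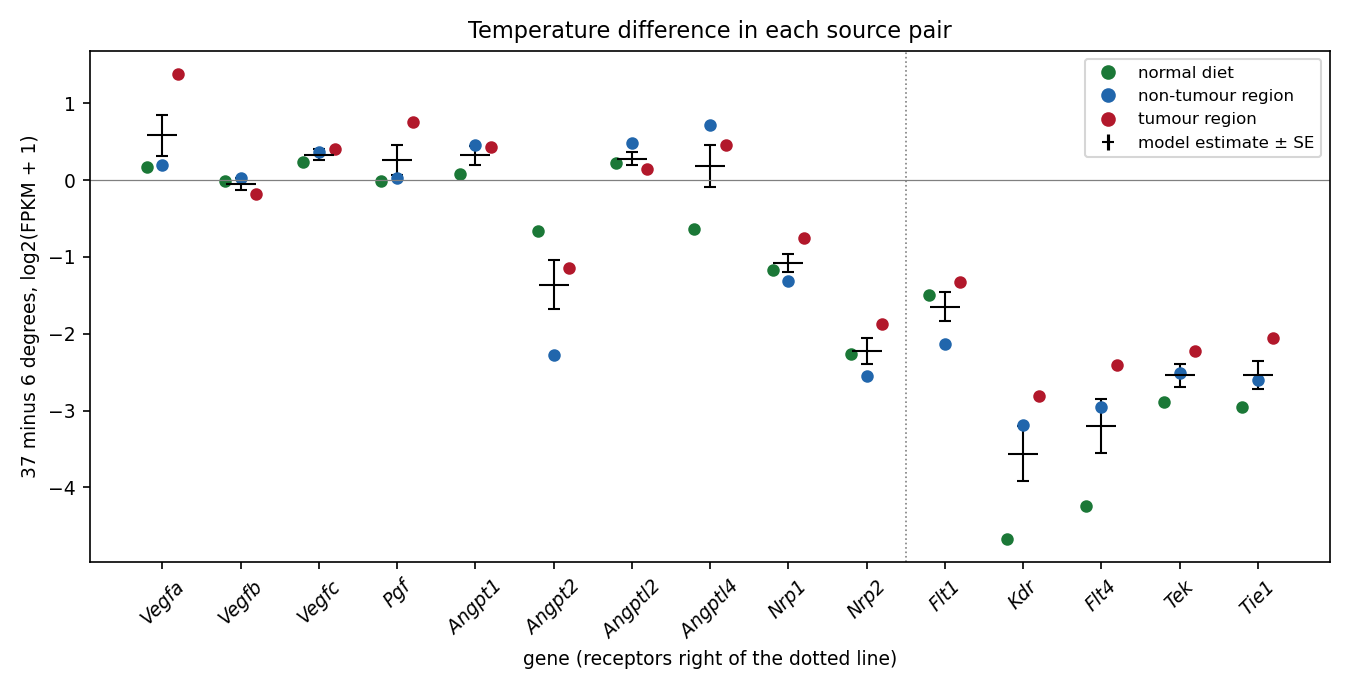
Difference in log2(FPKM + 1) between 37 and 6 degrees for the 10 genes and, right of the dotted line, the 5 receptors. Coloured points are the 3 source pairs and black bars the model estimate with its standard error. Nrp1, Nrp2 and the 5 receptors lie below 0 in all 3 pairs, while Angptl4 lies below 0 in normal diet and above 0 in the other two.

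The receptors of these ligands, a list of 5, all fell at 37 degrees (5 of 5, median log2 difference -2.54, against 0.01 over all genes tested). Kdr, the main signalling receptor of Vegfa, was at 2.2, 19.5 and 11.5 FPKM in the warm libraries and 80.2, 187 and 86.6 FPKM in the cold ones, a fall of 3.56 ± 0.36 in log2 (limma, adjusted p = 0.0178). Flt1, which binds Vegfa, Vegfb and Pgf, was at 1.63, 2.7 and 3.11 FPKM in the warm libraries and 6.42, 15.2 and 9.29 FPKM in the cold ones, and fell by 1.65 ± 0.19 (limma, adjusted p = 0.019). Flt4, the receptor of Vegfc, was at 0.636, 8.75 and 6.03 FPKM in the warm libraries and 29.9, 74.7 and 36.4 FPKM in the cold ones, and fell by 3.2 ± 0.35 (limma, adjusted p = 0.0185). In each of these, the 3 libraries of 6 degrees were above the 3 of 37 degrees. Tek, the angiopoietin receptor, was at 2.38, 9.95 and 5.96 FPKM in the warm libraries and 24.1, 61.2 and 31.7 FPKM in the cold ones, and fell by 2.54 ± 0.15 (limma, adjusted p = 0.0111). Tie1, the orphan partner of Tek, was at 1.72, 8.77 and 7.16 FPKM in the warm libraries and 20.1, 58.2 and 33.1 FPKM in the cold ones, and fell by 2.54 ± 0.18 (limma, adjusted p = 0.0139). These receptors are themselves endothelial genes, and 0 of 5 passed with no filter or without either library of the normal diet or of the non-tumour region.

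Angpt2, the Tek ligand that can act as an antagonist, was at 2, 2.43 and 5.1 FPKM at 37 degrees in normal diet, non-tumour and tumour region, and at 3.75, 15.6 and 12.4 FPKM at 6 degrees. Within each source the 6-degree library was higher, by 1.88, 6.42 and 2.44 times, but the groups overlapped, since the tumour region at 37 degrees was above normal diet at 6 degrees. The difference of -1.36 ± 0.32 in log2 did not pass (limma, adjusted p = 0.102). Angpt1, the Tek agonist, had values in the other order, at 6.77, 11.4 and 11.3 FPKM in the warm libraries and 6.34, 8.03 and 8.15 FPKM in the cold ones, and its difference of 0.32 ± 0.12 did not pass either (limma, adjusted p = 0.228). Angpt1 thus exceeded Angpt2 at 37 degrees in all 3 sources, with FPKM ratios of 3.38, 4.68 and 2.22. At 6 degrees the ratios were 1.69, 0.514 and 0.655, so that Angpt2 had the higher FPKM in both regions of high fat diet livers. The log2 ratio was higher at 37 degrees by 1, 3.19 and 1.76 in the 3 pairs (1.98 ± 1.11, SD, n = 3), with an exact two-sided sign-flip permutation p of 0.25, the smallest that 3 pairs allow. The endothelial markers moved against this ratio in all 3 pairs, and their part in it was not tested. Angpt2 lies inside Mcph1, a gene on the other strand with which it shares 0 exon bases and which was at 1.51 to 2.75 FPKM. Angpt1 shares 737 exon bases with the antisense gene Gm17473, and without stated strand their reads cannot be told apart.

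**Figure D3:**
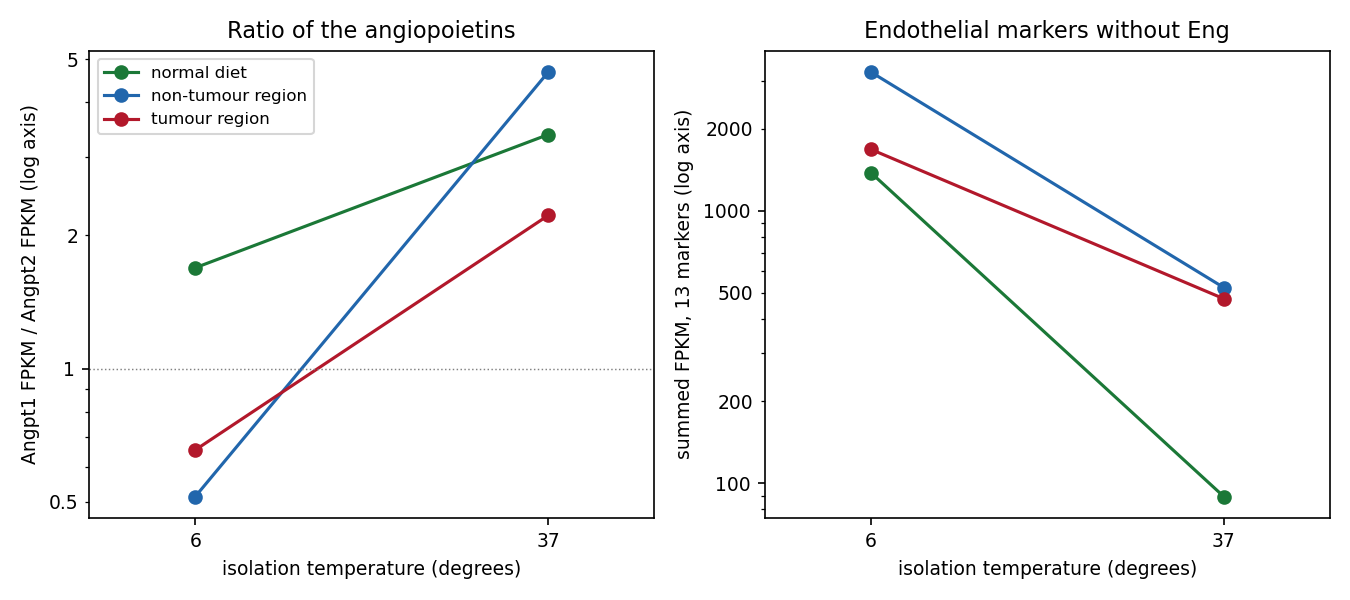
Left, the ratio of Angpt1 to Angpt2 FPKM (log axis) at 6 and 37 degrees, with a line for each liver source and a dotted line at 1. Right, the summed FPKM (log axis) of 13 endothelial markers, Eng left out, in the same libraries. The ratio is 0.514 to 1.69 at 6 degrees and 2.22 to 4.68 at 37 degrees, while the marker sum runs from 1380 to 3230 FPKM at 6 degrees and from 89.2 to 522 FPKM at 37 degrees.

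Among the VEGF ligands none passed the temperature test. Vegfc was at 50.4, 66.1 and 74.3 FPKM in the warm libraries and 42.9, 50.8 and 56.2 FPKM in the cold ones, higher at 37 degrees in each of the 3 pairs (0.33 ± 0.07 in log2; limma, adjusted p = 0.09). Vegfa, the principal hypoxia-driven endothelial growth factor, was at 4.35, 6.14 and 13.1 FPKM in the warm libraries and 3.77, 5.28 and 4.41 FPKM in the cold ones. The tumour region library of 37 degrees stood above the other 5, which lay between 3.77 and 6.14 FPKM. The difference between temperatures in Vegfa was 0.58 ± 0.27 (limma, adjusted p = 0.322), made up of 0.17, 0.19 and 1.38 in normal diet, non-tumour and tumour region. Pgf, a ligand of Flt1, had the same high library, with 0.872, 2.02 and 4.54 FPKM in the warm libraries and 0.89, 1.97 and 2.27 FPKM in the cold ones. Its temperature differences were -0.01, 0.02 and 0.76 in the 3 pairs, and an estimated 34.5 to 155 fragments lay behind its values. Vegfb, a Flt1 ligand, was at 25.8, 26.3 and 21.5 FPKM in the warm libraries and 25.9, 25.6 and 24.4 FPKM in the cold ones, a range of 1.22-fold, with a temperature difference of -0.05 ± 0.08 (limma, adjusted p = 0.779). Whether the temperature difference of Vegfa or Pgf was particular to the tumour region was not tested.

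Angptl2, a secreted glycoprotein that is no Tek ligand, was the most abundant of the 10, at 416, 503 and 429 FPKM in the warm libraries and 358, 362 and 390 FPKM in the cold ones. Every 37-degree library was above every 6-degree library, which holds for 8.3% of all genes tested. Yet the difference of 0.28 ± 0.09 did not pass (limma, adjusted p = 0.188). The 12 stellate cell markers had a median difference of 0.37 with temperature. Their part in the temperature differences of Angptl2, Vegfc and Angpt1 was not tested. Angptl4, an inhibitor of lipoprotein lipase, was at 61.9, 194 and 168 FPKM in the warm libraries and 97.1, 117 and 122 FPKM in the cold ones. The 37-degree library was the lower one in normal diet and the higher one in both regions of high fat diet livers, by -0.64, 0.72 and 0.46 in log2. The estimate over the 3 pairs was 0.18 ± 0.27 (limma, adjusted p = 0.753). Angptl2 lies across Ralgps1, a gene on the other strand with 0 shared exon bases, at 0.189 to 0.594 FPKM.

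The liver sources were compared over 2 pairs of libraries each, at 37 and at 6 degrees, and the comparisons of tumour and non-tumour region with normal diet share the normal diet libraries. In the tumour region against normal diet, 1 of the 10 genes rose, Vegfc, and 0 fell, where 8.02% of all genes tested passed (5.23% higher and 2.79% lower; 607 higher and 324 lower, and 459 higher and 398 lower after quantile normalization). At an unadjusted p under 0.05, 6 of the 10 were higher and 0 lower. Among the 11614 genes tested, 1746 were higher and 1205 lower at this threshold. Both tumour region libraries were above both normal diet libraries for 6 genes (Vegfa, Vegfc, Pgf, Angpt1, Angpt2 and Angptl4), as for 25.1% of all genes tested, and below them for Vegfb, as for 24.6% (49.6% in either direction). The median difference was 0.64 for the 10 genes and 0.01 for all genes tested.

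Vegfc rose by 0.47 ± 0.09 (SE, 2 pairs) in log2, or 1.38-fold, in the tumour region against normal diet (limma, adjusted p = 0.0461). The rise was close to the threshold and passed in 2 of 13 alternatives, and it was lost when any one of the 6 libraries was left out. Pgf differed by 1.18 ± 0.25 (limma, adjusted p = 0.056), with 1.56 at 37 degrees and 0.79 at 6 degrees. Vegfa differed by 0.79 ± 0.33 (limma, adjusted p = 0.224), with 1.4 at 37 degrees and 0.18 at 6 degrees. Without the tumour region library of 6 degrees, the difference was 1.39 for Vegfa and 1.55 for Pgf. That fit leaves only the 37-degree library of the tumour region, the high one for both genes. Vegfb differed by -0.17 ± 0.1 (limma, adjusted p = 0.365). The summed macrophage markers were also high in the tumour region (885 and 2200 FPKM at 37 and 6 degrees, against 48.2 and 527 in normal diet). So were those of portal fibroblasts and smooth muscle (1160 and 1210 against 491 and 355). Most of the latter sum was Tagln (857 and 803 against 350 and 215) and Acta2 (266 and 337 against 107 and 112). Thy1 of that list was at 0.427 and 0.453 FPKM against 0.122 and 0.152. Of its 7 genes tested, 6 estimates were positive and 1, Eln at -0.15, negative. The part of these markers in the differences of Vegfc, Pgf, Vegfa and Vegfb was not tested.

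The other genes did not pass in the tumour region against normal diet. Angpt1 differed by 0.49 ± 0.14 (limma, adjusted p = 0.117) and Angpt2 by 1.26 ± 0.39 (limma, adjusted p = 0.128). Angptl4 differed by 0.87 ± 0.33 (limma, adjusted p = 0.188), with 1.42 at 37 degrees and 0.33 at 6 degrees, and Angptl2 by 0.08 ± 0.11 (limma, adjusted p = 0.682), which turned to -0.18 after quantile normalization. For the neuropilins, the differences were 0.97 ± 0.2 for Nrp2 (limma, adjusted p = 0.056) and 0.19 ± 0.15 for Nrp1 (limma, adjusted p = 0.486). Of the 14 endothelial markers, 11 were higher in this comparison at an unadjusted p under 0.05 (median 1.31; 0 passed), and their part in the neuropilin values was not tested. With small RNA genes left out, 3 genes passed, as Pgf (limma, adjusted p = 0.0452) and Nrp2 (limma, adjusted p = 0.0464) joined Vegfc. Pgf was at 0.872 and 0.89 FPKM in normal diet. It reached the filter of 1 FPKM only through the high fat diet libraries, so its call is a description.

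**Figure D4:**
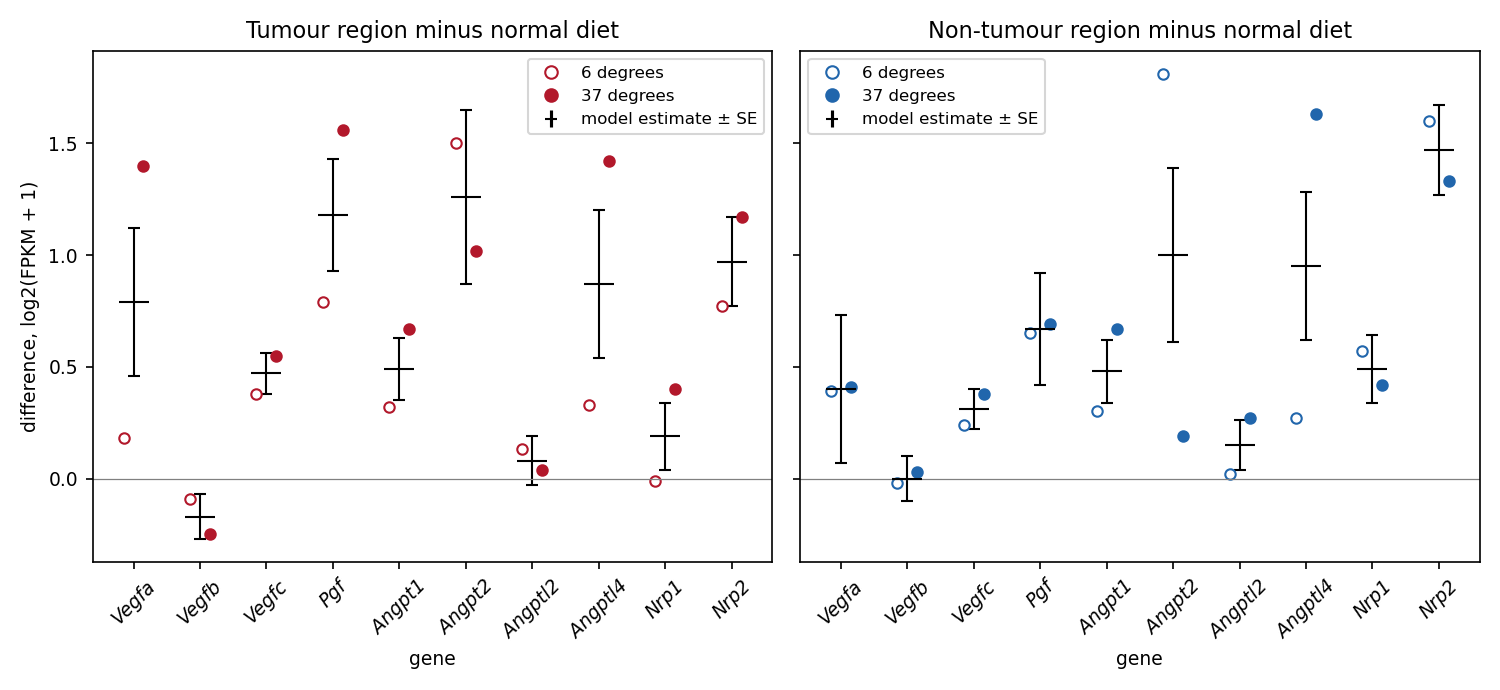
Difference in log2(FPKM + 1) from normal diet for the tumour region (left) and the non-tumour region (right), at 6 degrees (open points) and 37 degrees (filled points), with the model estimate and its standard error in black. For Vegfa in the tumour region the difference is 1.4 at 37 degrees and 0.18 at 6 degrees, and for Angpt2 in the non-tumour region 0.19 at 37 degrees and 1.81 at 6 degrees.

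In the non-tumour region against normal diet, 1 of the 10 genes rose, Nrp2, and 0 fell, where 4.81% of all genes tested passed (2.55% higher and 2.26% lower). Nrp2 rose by 1.47 ± 0.2 in log2, or 2.76-fold (limma, adjusted p = 0.028), by 1.33 at 37 degrees and 1.6 at 6 degrees. The groups overlapped, since Nrp2 was at 4.37 FPKM in normal diet at 6 degrees and at 1.79 FPKM in the non-tumour region at 37 degrees. The call was lost with a pseudocount of 0.1, with a mean of at least 5 FPKM and with no filter. It was also lost without either normal diet library or either non-tumour library. Nrp2 in normal diet at 37 degrees was at 0.113 FPKM, on an estimated 14.4 fragments. The 14 endothelial markers were also higher in this comparison at an unadjusted p under 0.05 (14 of 14, median 1.93; 0 passed), and their part was not tested. At an unadjusted p under 0.05, 6 of the 10 genes were higher, where 1439 of the 11614 genes tested were higher and 1022 lower. Both non-tumour libraries were above both normal diet libraries for 5 (Vegfa, Vegfc, Pgf, Angpt1 and Angptl4), as for 24.1% of all genes tested (45.3% in either direction). The median was 0.49 for the 10 genes and 0.03 for all genes tested.

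Among the rest in the non-tumour region, Angptl4 differed by 0.95 ± 0.33 (limma, adjusted p = 0.196), with 1.63 at 37 degrees and 0.27 at 6 degrees. Angpt2 differed by 1 ± 0.39 (limma, adjusted p = 0.236), with 0.19 at 37 degrees and 1.81 at 6 degrees, so that its difference was nearly all at the temperature where Angptl4 had little. Pgf differed by 0.67 ± 0.25 (limma, adjusted p = 0.216), Nrp1 by 0.49 ± 0.15 (limma, adjusted p = 0.157) and Angpt1 by 0.48 ± 0.14 (limma, adjusted p = 0.145). Vegfa at 0.4 ± 0.33, Vegfc at 0.31 ± 0.09, Angptl2 at 0.15 ± 0.11 and Vegfb at 0 ± 0.1 completed the set. Of the receptors, Tek and Tie1 rose, by 1.5 ± 0.18 (limma, adjusted p = 0.0201) and 1.66 ± 0.22 (limma, adjusted p = 0.0254), and in the tumour region against normal diet Tie1 rose by 1.14 ± 0.22 (limma, adjusted p = 0.0486), a call that held in 3 of 13 alternatives. The non-tumour calls of Tek and Tie1 each held in 8 of 13, and both were lost with no filter and without either library of the normal diet or of the non-tumour region. Endothelial markers were higher in both comparisons, as given beside Nrp2, and their part was not tested.

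Between the tumour and the non-tumour region, 0 of the 10 genes passed with limma, where 0.00861% of all genes tested passed (1 gene, lower). None of the 10 had an unadjusted p under 0.05, where 713 of the 11614 genes tested were higher and 421 lower. With small RNA genes left out, 52 genes passed over all, none of them among the 10. The differences of the 10 ran from -0.5 ± 0.2 for Nrp2 (limma, adjusted p = 0.532) to 0.51 ± 0.25 for Pgf (limma, adjusted p = 0.573), with a median of -0.03 against -0.02 over all genes tested. Both tumour region libraries were above both non-tumour libraries for Pgf (4.54 and 2.27 against 2.02 and 1.97 FPKM), as for 14.7% of all genes tested, and below them for Vegfb, as for 17.7% (32.4% in either direction). For Vegfa the difference between the regions was 0.98 at 37 degrees and -0.22 at 6 degrees.

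Other genes of these pathways were taken from lists of known members. Of 3 other ligands tested (of 6 listed), 0 passed in any comparison. Among them, Angptl6, singled out after its values were seen, was at 484 to 971 FPKM, above Angptl2 in all 6 libraries. Class 3 semaphorins, which share the neuropilins with VEGF, had 3 of 7 members tested and 1 that passed, with Sema3f, a ligand of Nrp2, falling at 37 degrees by 1.11 ± 0.13 (limma, adjusted p = 0.0195), with cold values of 15.6, 33.5 and 24.4 FPKM against warm values of 8.51, 14 and 9.08 FPKM. Plexins and partners, through which neuropilins signal, had 5 of 6 tested and 1 that passed, Plxna2, at 0.0859, 0.594 and 0.785 FPKM in the warm libraries and 1.36, 3.5 and 2.19 FPKM in the cold ones. It reached the filter of 1 FPKM only through the cold libraries, so its call is a description. Sema3f passed in 5 of 15 alternatives, and the part of the endothelial markers, which fell in the same libraries, was not tested. The source comparisons had 0 calls in both lists. The secreted angiogenesis inhibitors had 7 tested. In the tumour region against normal diet 3 of these rose, where 5.23% of all genes tested rose. Timp3, an inhibitor of metalloproteinases that also binds Kdr, rose by 2.04 ± 0.15 (limma, adjusted p = 0.0107). Thbs1 rose by 2.59 ± 0.36 (limma, adjusted p = 0.0222) and Col18a1, the precursor of endostatin, by 2.03 ± 0.32 (limma, adjusted p = 0.0287). Timp3 was at 110 and 109 FPKM in normal diet and at 555 and 370 in the tumour region. Of 13 alternatives, Timp3 passed in 12 (not without normal diet at 37 degrees), Thbs1 in 9 and Col18a1 in 7. Thbs1 was lost with no filter and without the tumour region at 37 degrees, the tumour region at 6 degrees or the non-tumour region at 37 degrees, and Col18a1 with no filter, with only the 2 sources compared and without either library of the normal diet or of the non-tumour region. In the same comparison, 11 of 11 macrophage markers tested were higher at an unadjusted p under 0.05 (median 2.63, 5 passed). Of 7 markers of portal fibroblasts and smooth muscle, 3 rose, which were Cnn1, Acta2 and Tagln (median 1.11 over the 7). The part of these marker sets was not tested. In the non-tumour region 1 rose, Timp3, by 1.67 ± 0.15 (limma, adjusted p = 0.0126), where 2.55% of all genes tested rose. That call was lost without normal diet at 37 degrees and without either non-tumour library. With temperature, 0 inhibitors passed.

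Regulators of the hypoxia-inducible factors, which control Vegfa, had 7 of 8 tested and 0 passed in any comparison. Their targets, 14 of 15 tested, had 6 that rose in the tumour region against normal diet (median 0.68) and 4 in the non-tumour region (median 0.54), with 0 that fell in either, where 5.23% and 2.55% of all genes tested rose. In the tumour comparison the count was 0 without normal diet at 37 degrees, without normal diet at 6 degrees or without the tumour region at 37 degrees. It was 1 without the non-tumour region at 37 degrees or with only the 2 sources compared, 2 without the non-tumour region at 6 degrees, 4 without the tumour region at 6 degrees and 3 with no filter. In the non-tumour comparison it was 0 with no filter and without either library of the normal diet or of the non-tumour region. Adm, the vasodilator peptide adrenomedullin, was at 114 and 71.7 FPKM in normal diet at 37 and 6 degrees, at 201 and 153 in the non-tumour region and at 212 and 166 in the tumour region. It rose by 1.04 ± 0.11 in the tumour region (limma, adjusted p = 0.0134) and by 0.95 ± 0.11 in the non-tumour region (limma, adjusted p = 0.018). The glucose transporter Slc2a1 rose by 0.89 ± 0.11 and 0.84 ± 0.11 in these comparisons (limma, adjusted p = 0.0175 and 0.0229), and the collagen prolyl hydroxylase P4ha1 by 0.75 ± 0.1 and 0.83 ± 0.1 (limma, adjusted p = 0.0219 and 0.0208). Of 13 alternatives in the tumour comparison, Adm passed in 10, Slc2a1 in 7 and P4ha1 in 6, and in the non-tumour comparison each of the 3 passed in 8. The macrophage and smooth muscle markers described with the inhibitors were higher in the same tumour comparison, and their part was not tested here either. With temperature, 1 target passed, Pdk1, which fell by 0.8 ± 0.14 (limma, adjusted p = 0.0488) and passed in 2 of 14 alternatives. Vegfa and Angptl4, targets of the same factors, did not pass in any of these comparisons. Genes of PPAR signalling and lipoprotein lipase, which Angptl4 inhibits, had 9 tested and 1 passed: Gpihbp1, the endothelial anchor of that lipase, fell with temperature by 3.59 ± 0.6 (limma, adjusted p = 0.0471) and passed in 6 of 15 alternatives, while 0 passed between sources. Lpl itself was at 46.6 to 88.4 FPKM.

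The genes whose pattern over the 6 libraries was most like that of each member were found by Pearson's r of log2(FPKM + 1) among 1297 tested genes that averaged 5 FPKM or more and ranged over 2-fold or more. These are given as a description, since 6 libraries share source and temperature across all genes. For Nrp2 they were Myct1 (0.9992), Mgat1 (0.9988) and Afap1l1 (0.9979), and for Nrp1 they were Sepp1 (0.9976), Slc39a8 (0.9967) and Fam124a (0.9957), with 151 and 136 genes above 0.95. For Angpt2 they were Snx5 (0.9813), Lpar6 (0.976) and Sap30 (0.9741). For Vegfa they were Ifit3b (0.9862), Dnaja1 (0.9827) and Ddit3 (0.9819), for Pgf Errfi1 (0.9871), Icam1 (0.9867) and Trib1 (0.986), and for Angptl4 Hist1h4h (0.9477), Hotairm1 (0.9459) and Il3ra (0.9416). Nrp1 and Nrp2 correlated with each other at 0.98.

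By the GENCODE M21 annotation of GRCm38, the genes lie on 7 chromosomes. Vegfa is at chr17:46016993-46032369 (minus strand), Vegfb at chr19:6982473-6987651 (minus), Vegfc at chr8:54077606-54187096 (plus) and Pgf at chr12:85166635-85177790 (minus). Angpt1 is at chr15:42424723-42676977 (minus), Angpt2 at chr8:18690263-18741562 (minus), Angptl2 at chr2:33216069-33247717 (plus) and Angptl4 at chr17:33773750-33781830 (minus). Nrp1 is at chr8:128358604-128503363 (plus) and Nrp2 at chr1:62703285-62818695 (plus). The printed Nrp1 window lies inside the annotated span of that gene but outside its exons. Nrp1 holds the microRNA gene Mir1903, 80 bases of which fall in its exons and which was listed at 0 in all 6 libraries.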

How the data were processed

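The authors deposited 1 table of FPKM per library, a fragment count per kilobase of transcript scaled to the mapped fragments. The submitters' processing notes name Cuffdiff 2.2.1, TopHat2 2.1.1, Bowtie2 and the mm10 build, without settings. How strand, annotation and scaling were set is not given in the sources used here. The 11614 genes averaging 1 FPKM or more were tested on the log2(FPKM + 1) scale in limma (3.58.1, under R 4.3.3), with liver source and temperature as additive terms, an intensity trend, and Benjamini-Hochberg adjustment over all genes. An adjusted p under 0.05 counted as passing. The model leaves 2 residual degrees of freedom (5.02 with the prior), and fold changes of low genes are understated on this scale. Each SE comes from this model of all 6 libraries, with the spread of a gene drawn toward that of the other genes. The pairs given beside an SE are those compared. Depth was estimated from the size of 1 fragment, taken as the median of low values inside a fixed window. That window bounds the estimate. Of the low values, 71.3% to 81.1% were within 0.15 of a whole number of fragments. The script was tested on simulated data with the same scatter for every gene and no source differences. That setting is simpler than these data, so it does not measure how reliable the calls are. All 10 members are named. From each pathway list the receptors, and up to 3 genes that passed per list, are named. The members and lists were chosen with earlier results of these data known. Alternatives were another pseudocount, filters, rescaling, fewer sources, and, chosen after seeing the data, small RNA genes left out and each library left out in turn.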

Additional observations from a re-analysis of the deposited data

Results flagged for a closer look

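Angptl4, the lipoprotein lipase inhibitor, was lower at 37 than at 6 degrees in normal diet and higher in both regions of high fat diet livers. Its difference between 37 and 6 degrees was -0.64 on the log2(FPKM + 1) scale in normal diet, 0.72 in the non-tumour region and 0.46 in the tumour region. Whether the sources differ in this was not tested.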

How the results depend on the processing

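The model pairs the libraries of a liver source in the temperature comparison. A further paired analysis was not possible because the labels give no replicate numbers. For temperature, the count of members passing was 2, and it was 0 with no filter on low values, without either the normal diet or the non-tumour pair, and 0 to 2 when each library was left out. For tumour region against normal diet it was 1, and it was 0 with a pseudocount of 0.1, a mean of at least 5 FPKM, no filter, quantile normalization and only the 2 sources compared, 3 with small RNA genes left out and 0 to 2 without each library. For non-tumour region against normal diet it was 1, and it was 0 with a pseudocount of 0.1, a mean of at least 5 FPKM and no filter, and 0 to 1 without each library. In these fits a lone library is assumed to vary like the others, and the cause of each loss was not tested.

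Over all genes, 500 passed with temperature, against 283 with a mean of at least 5 FPKM, 0 with no filter (unadjusted, 1007 higher and 1797 lower with a p under 0.05), 0 without the normal diet pair, 11 without the non-tumour pair and 0 to 361 without each library. For tumour region against normal diet, 931 passed, against 571, 426 with no filter, 370 with only these sources and 17 to 611. For non-tumour region against normal diet, 559 passed, against 206 with no filter and 0 to 609. For tumour against non-tumour region, 1 passed, against 0 with no filter, 52 without small RNA genes and 0 to 68.

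Members that did not pass changed sign near 0: with quantile normalization Angpt1 between the regions (0), Angptl2 in the non-tumour (0) and tumour region (-0.18) against normal diet and Vegfb in the non-tumour region (-0.06; -0.01 with median-ratio rescaling). With temperature, Angptl4 was -0.09 without the non-tumour pair and Vegfb 0.01 without the tumour pair. Leaving out each library in turn, sign changes came with ranges of Vegfb -0.09 to 0.01 and Angptl4 -0.09 to 0.59 with temperature. Ranges were Angptl2 -0.02 to 0.19 and Nrp1 -0.05 to 0.43 in the tumour region against normal diet. Ranges were Vegfb -0.06 to 0.07 and Angptl2 0 to 0.3 in the non-tumour region against normal diet. Ranges were Vegfa -0.22 to 0.99, Angpt1 -0.09 to 0.11, Angpt2 -0.42 to 0.95, Angptl2 -0.21 to 0.09 and Angptl4 -0.48 to 0.33 between the regions. No other member value changed sign, and depth limits Pgf and Nrp2 most, whose lowest values rest on an estimated 34.5 and 14.4 fragments.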
